A study of Mus musculus with 6 samples.

Results

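The genes that build, coat and empty lipid droplets were examined in control and PGAM5 KD iBMDMs, as 10 genes chosen by name for their roles (Plin2, Plin3, Hilpda, Dgat1, Dgat2, Gpat3, Pnpla2, Abhd5, Lipe and Mgll) out of the 54532 genes listed in each library. All 10 were found by their symbol in the GENCODE M21 annotation of GRCm38. Expression was measured by RNA-seq of mRNA captured on poly-T beads in 3 control and 3 PGAM5 KD libraries. iBMDMs are bone marrow-derived macrophages of WT mice that were immortalized with retroviruses carrying v-raf and v-myc. Control cells carry a control shRNA and PGAM5 KD cells an shRNA against Pgam5, and the cells of all 6 libraries received LPS (100 ng/ml) for 4 hours, so no library measures the cells before LPS. Each group is a line with its own shRNA, and an effect of PGAM5 and a difference between the lines cannot be told apart. Whether the 3 libraries of a group came from separate cultures is not given in the sources used here, so the p-values below measure only the spread between these libraries.

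Triglycerides are made in the endoplasmic reticulum by stepwise addition of fatty acids to a glycerol backbone and are stored in lipid droplets, whose surface is coated by perilipins. Stored triglyceride is released again by lipolysis, in which ATGL, HSL and monoacylglycerol lipase each remove a fatty acid in turn. Macrophages stimulated through TLRs are known to gather lipid droplets, and both synthesis and lipolysis set how much triglyceride they hold. Of the 10 genes, 6 serve synthesis and storage (Gpat3, Dgat1, Dgat2, Plin2, Plin3 and Hilpda) and 4 serve lipolysis (Pnpla2, Abhd5, Lipe and Mgll).

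Values are FPKM, fragment counts scaled by exon length and by the total of the library. From the steps of the low values, between 18163463 and 24388917 fragments per library were recovered. Pgam5 itself had 17.1, 13.0 and 13.4 FPKM in the control libraries against 4.33, 5.75 and 4.53 FPKM after knockdown, and was thus lower wherever the label says PGAM5 KD. Of 10 macrophage markers, 8 had a mean of at least 1 FPKM and Mertk was listed at 0, and their summed level ranged from 2977 to 3062 FPKM in control and from 2691 to 2718 FPKM in PGAM5 KD libraries, with 4 markers higher and 3 lower at an adjusted p-value under 0.05 from limma. Over all genes tested, 16.8% were higher and 14.9% lower. Mean FPKM rose for Adgre1 (7.93 to 15.1), Itgam (2.41 to 4.46), Fcgr1 (4.34 to 14.1) and Cd14 (461 to 683). It fell for Lyz2 (1666 to 1265), which leads the sum, Csf1r (231 to 148) and Cd68 (468 to 406), and for Spi1 it was 170 and 165. The part of these markers in the results below was not tested. Of 8 adipocyte markers, a cell type filled with lipid droplets, 5 were at 0 in every library (Adipoq, Lep, Plin1, Cidec and Cfd), and the 8 summed to at most 0.342 FPKM in control and 0.178 FPKM in PGAM5 KD libraries. Fibroblast, neutrophil and lymphocyte markers each summed to at most 0.328 FPKM in any library. In such bulk RNA, fewer cells that express a gene and less of its RNA per cell cannot be told apart.

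Of the 10 genes, 8 had a mean of at least 1 FPKM over the 6 libraries and were tested with limma on log2(FPKM + 1), together with all other genes past this filter. At an adjusted p-value under 0.05, 1 of these 8 genes was called, namely Abhd5, which was higher in PGAM5 KD cells, and none was called lower. This share of 12.5% is below the background, since 31.7% of all 10540 genes tested were called, 16.8% higher and 14.9% lower in PGAM5 KD cells. None of the 8 passed the study's rule for differential expression, an adjusted p-value under 0.05 with an absolute log2 fold change above 1, which 1.32% of all genes tested passed. The median log2 fold change was -0.11 over the 5 tested genes of synthesis and storage and 0.04 over the 3 tested genes of lipolysis, against 0.01 over all genes tested. With 1 library left out, the first median ran from -0.18 to -0.079 and the second from -0.0057 to 0.095, the second changing sign without control replicate 1 or PGAM5 KD replicate 1. Scaled to TPM, the first was -0.20 and the second -0.027. The median over all genes tested also moved with this scaling, from 0.01 to -0.060, so TPM values below carry that general shift. Gpat3 and Mgll were below the filter. The levels of Gpat3 were higher in every PGAM5 KD library than in any control library, as were those of 24.2% of the genes tested, while Mgll was listed at 0 throughout.

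The regions upstream of a pair of members are shown here, namely of Abhd5, the gene that was called, and of Pnpla2, whose enzyme is activated by the product of Abhd5. Each is the part of the 250 bases before the RefSeq start (GRCm38.p6) that lies outside annotated exons of the gene, and both are given on the plus strand, the strand of both genes. Capitals mark matches, on either strand, to GGGCGG (the GC box) and to ACGTG and GCGTG (cores of the hypoxia response element).
Abhd5, chr9:122351366-122351607: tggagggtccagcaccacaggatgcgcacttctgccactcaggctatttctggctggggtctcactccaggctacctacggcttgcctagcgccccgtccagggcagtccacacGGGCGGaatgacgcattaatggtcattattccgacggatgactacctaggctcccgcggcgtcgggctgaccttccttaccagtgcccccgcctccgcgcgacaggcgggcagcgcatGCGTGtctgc
Pnpla2, chr7:141454938-141455187: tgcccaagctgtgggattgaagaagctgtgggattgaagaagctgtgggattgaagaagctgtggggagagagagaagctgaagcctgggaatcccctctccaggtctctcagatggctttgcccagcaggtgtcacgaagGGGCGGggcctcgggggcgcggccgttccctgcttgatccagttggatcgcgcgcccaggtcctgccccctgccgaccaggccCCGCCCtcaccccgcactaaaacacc
The windows of 8 of the 10 genes, 11 windows in all since some genes have more than 1 start, were matched in the RefSeq table, and Dgat1 and Dgat2 had no match. Some of these starts, that of Gpat3 among them, lie downstream of the first base of the gene in GENCODE, so that the window falls within the gene. A GC box was found in 7 of the 11 windows, against 32.7% of 32851 windows of all genes. ACGTG was found in 4 of the 11 windows, those of Hilpda, Lipe and Mgll, against 16.6% of all windows, and GCGTG in 6 of the 11 against 28.2%. CACGTG, an E-box that contains ACGTG, was found in the windows of Lipe and Mgll, against 6.02% of all windows. CCAAT was found in those of Plin2 and Plin3, against 33.9%. None of the 11 windows held TGACGTCA (the cAMP response element), which 1.55% of all windows hold, or the searched forms of the interferon-stimulated response core (2.98%) and of the PPAR DR1 element (0.0335%). Over the full 250 bases, the GC content was 64.8% for Abhd5 and 63.2% for Pnpla2, against a median of 52.4% over all windows. These matches describe the letters of the windows only, and no binding was measured.

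First, the enzymes of triglyceride synthesis were compared. Gpat3 (ENSMUSG00000029314) encodes an acyltransferase that adds the first fatty acid to glycerol phosphate, and spans bases 100845713 to 100899102 of chromosome 5 of GRCm38 (plus strand). It had 0.126, 0.0991 and 0.146 FPKM in the control libraries, from 8, 7 and 10 fragments. After PGAM5 knockdown it reached 0.325, 0.456 and 0.480 FPKM, from 25, 29 and 41 fragments. The groups were separate (p = 0.1 in a two-sided exact permutation, which is as small as 3 libraries against 3 can give), and the ratio of the mean FPKM was 3.40. Among genes with a mean of at least 1 FPKM, 47.1% were separate and 24.2% were so with higher PGAM5 KD levels. No such share was computed for genes at the level of Gpat3. With no filter on low values, where 12.4% of 20816 genes were called, 6.36% higher and 6.09% lower, the log2 fold change of Gpat3 was 0.34 (standard error 0.06, adjusted p = 0.0188 from limma), a scale that strongly understates the change of a gene at this level. The call was lost when any library other than PGAM5 KD replicate 1 was left out, with log2 fold changes from 0.31 to 0.39 and adjusted p-values from 0.013 to 0.0666. On the recovered fragments, voom over 12439 genes with a mean of at least 10 fragments called 33.5% of them, 16.7% higher. Gpat3 passed that filter only through its PGAM5 KD libraries, so its call there is no support for a difference. Gpat3 shares exon sequence with the antisense gene 4930458D05Rik and with Gm42987, and both were listed at 0.

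Dgat1 and Dgat2 encode the acyltransferases of the last step, which makes triglyceride from diacylglycerol. Dgat1 (ENSMUSG00000022555, chromosome 15, minus strand, 76502015 to 76511953) gave 3.17, 3.23 and 3.13 FPKM in control and 2.44, 3.39 and 2.98 FPKM in PGAM5 KD libraries. The PGAM5 KD libraries lay on both sides of the narrow control range. The log2 fold change was -0.093 (standard error 0.10, 95% interval from -0.33 to 0.15, adjusted p = 0.521 from limma), and it was 0.00025 without PGAM5 KD replicate 1, the lowest library, and -0.19 when scaled to TPM. Dgat2 (ENSMUSG00000030747, chromosome 7, minus strand, 99153658 to 99182719) gave 2.18, 1.43 and 1.55 FPKM in control and 1.42, 1.5 and 1.18 FPKM in PGAM5 KD libraries. Control replicate 1 stood above the other 5 libraries, which otherwise overlapped. The log2 fold change of Dgat2 was -0.19 (standard error 0.13, 95% interval from -0.51 to 0.13, adjusted p = 0.319 from limma) and moved to -0.074 without control replicate 1 and to -0.33 when scaled to TPM. With between 84 and 122 fragments per library, Dgat2 was the least precisely measured of the 8 genes tested.

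The perilipins and Hilpda were examined next. Plin2 (ENSMUSG00000028494), which encodes the main droplet coat protein of macrophages, spans bases 86648386 to 86670060 of chromosome 4 (minus strand). It had 25.9, 23.7 and 24.1 FPKM in control and 25.2, 27.4 and 26.5 FPKM in PGAM5 KD libraries, from at least 1652 fragments in each. Control replicate 1 was above PGAM5 KD replicate 1, so the groups overlapped. On the log2 scale the difference was 0.097 (standard error 0.05, 95% interval from -0.02 to 0.22, adjusted p = 0.182 from limma), the narrowest interval among the 8 genes, and 0.022 when scaled to TPM. Plin3 (ENSMUSG00000024197), whose product is a cytosolic perilipin that binds nascent droplets, spans bases 56277476 to 56292873 of chromosome 17 (minus strand). It had 5.03, 4.95 and 5.43 FPKM in control and 4.45, 5.31 and 4.34 FPKM in PGAM5 KD libraries, where replicate 2 lay within the control range and the other two below it. Its log2 fold change, -0.11, missed the threshold (standard error 0.08, 95% interval from -0.30 to 0.08, adjusted p = 0.35 from limma), and moved to -0.18 without PGAM5 KD replicate 2, to -0.065 without PGAM5 KD replicate 3 and to -0.20 when scaled to TPM.

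Hilpda (ENSMUSG00000043421) encodes a small droplet protein that inhibits ATGL and is known as a target of hypoxia-inducible factors. It spans bases 29272488 to 29275446 of chromosome 6 (plus strand). Its level was 16.2, 16.9 and 19.2 FPKM in control and 12.8, 15.8 and 16.8 FPKM in PGAM5 KD libraries. PGAM5 KD replicate 1 was the lowest library and control replicate 3 the highest, while the others lay close together. On the log2 scale the difference was -0.20 (standard error 0.10, 95% interval from -0.44 to 0.05, adjusted p = 0.197 from limma), and leaving out 1 library in turn gave values from -0.27 to -0.089. None of the 16 alternative settings brought Hilpda or Plin2 past the threshold, and none of 15 brought Plin3, Dgat1 or Dgat2 past it, these 3 being below the filter of 5 FPKM that the other setting applies.

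**Figure D1:**
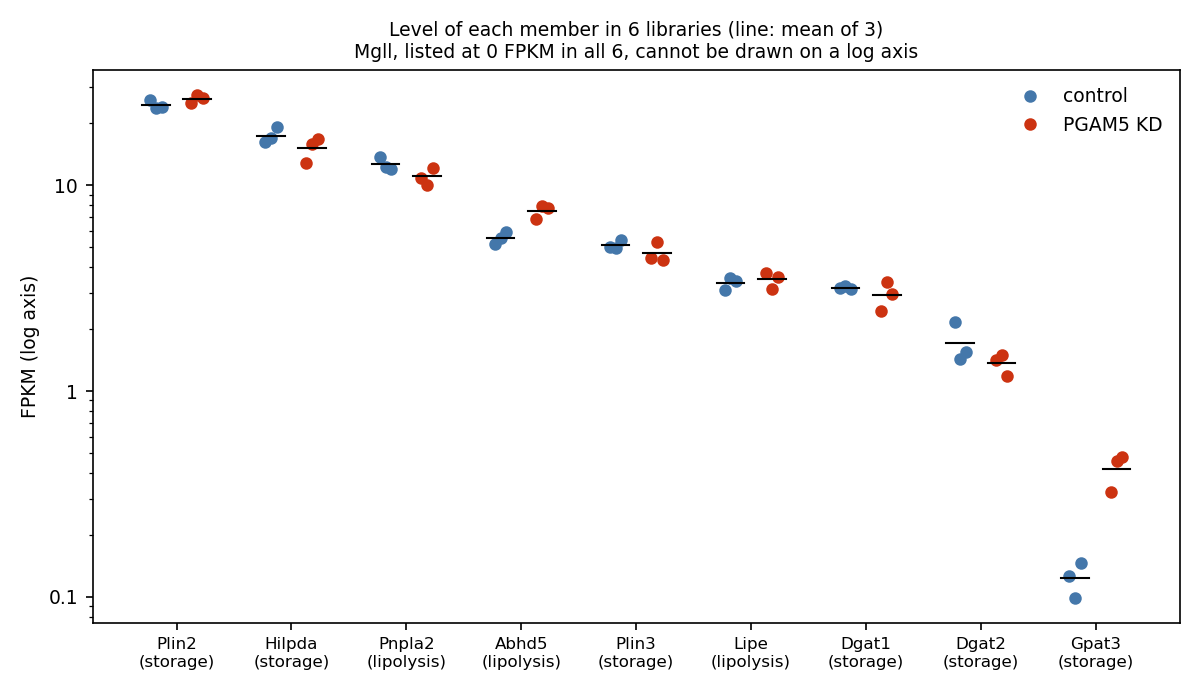
FPKM of 9 of the 10 genes (log axis) in the 3 control and 3 PGAM5 KD libraries, with 1 point per library, a line at the mean of each group, and the role of each gene in parentheses. The groups are separate for Abhd5 (5.17 to 5.93 FPKM against 6.83 to 7.97 FPKM) and for Gpat3 (0.0991 to 0.146 FPKM against 0.325 to 0.480 FPKM) and overlap for the others. Among all genes with a mean of at least 1 FPKM, they are separate for 47.1%.

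Next, the genes of lipolysis were compared. Abhd5 (ENSMUSG00000032540) encodes the co-activator of ATGL, and spans bases 122351608 to 122381524 of chromosome 9 (plus strand). It had 5.17, 5.57 and 5.93 FPKM in control and 6.83, 7.97 and 7.72 FPKM in PGAM5 KD libraries. All 3 PGAM5 KD libraries exceeded the highest control library. Among the 8 genes tested the groups were separate for this gene alone, whereas they were separate for 47.1% of all genes tested and higher in PGAM5 KD for 24.2%. The mean rose from 5.55 ± 0.380 FPKM in control (SD, n = 3) to 7.51 ± 0.599 FPKM after PGAM5 KD (SD, n = 3), which is 1.35 times the control level. On the log2 scale the increase was 0.38, with a 95% interval from 0.20 to 0.55 (standard error 0.07, limma adjusted p = 0.00999, exact permutation p = 0.1). Abhd5 was past the threshold in all 16 alternative settings, with log2 fold changes from 0.33 to 0.43. Its exons share 950 bases with the antisense gene A730085K08Rik, which had at most 2 fragments in any library against at least 559 on Abhd5.

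Pnpla2 (ENSMUSG00000025509) encodes ATGL, which starts the breakdown of stored triglyceride, and spans bases 141455198 to 141460743 of chromosome 7 (plus strand). It had 13.8, 12.3 and 12.0 FPKM in control and 10.9, 10.0 and 12.2 FPKM in PGAM5 KD libraries. PGAM5 KD replicate 3 lay within the control range and the other two below it. Its log2 fold change, -0.19, missed the threshold (standard error 0.08, 95% interval from -0.38 to 0.0014, adjusted p = 0.119 from limma). Scaled to TPM, it was -0.28 and past the threshold (limma adjusted p = 0.0454). Of the 8 genes tested, it was the only one whose call changed with the scaling between libraries. Lipe (ENSMUSG00000003123), which encodes HSL, the main lipase of diacylglycerol, spans bases 25379527 to 25398710 of chromosome 7 (minus strand). Its 3.11, 3.56 and 3.44 FPKM in control and 3.76, 3.14 and 3.57 FPKM in PGAM5 KD libraries overlapped almost fully. The log2 fold change of Lipe was 0.04 (standard error 0.08, 95% interval from -0.16 to 0.24, adjusted p = 0.758 from limma) and was -0.027 when scaled to TPM. Its exons overlap the antisense gene 4732471J01Rik by 918 bases, and that gene had at most 32 fragments per library.

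Mgll (ENSMUSG00000033174) encodes monoacylglycerol lipase, the last enzyme of the pathway, and spans bases 88724412 to 88828360 of chromosome 6 (plus strand). It was listed at 0 FPKM in all 6 libraries. If the gene was counted, a count of 0 on its 5077 bases of exon allows up to 3 fragments, a level between 0.0242 and 0.0324 FPKM depending on the library, for counting error only. The annotation behind the FPKM is not given in the sources used here, and whether the 0 of Mgll, like that of Mertk, reflects a gene that was not counted was not tested. Mgll could therefore not be compared between the groups.

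**Figure D2:**
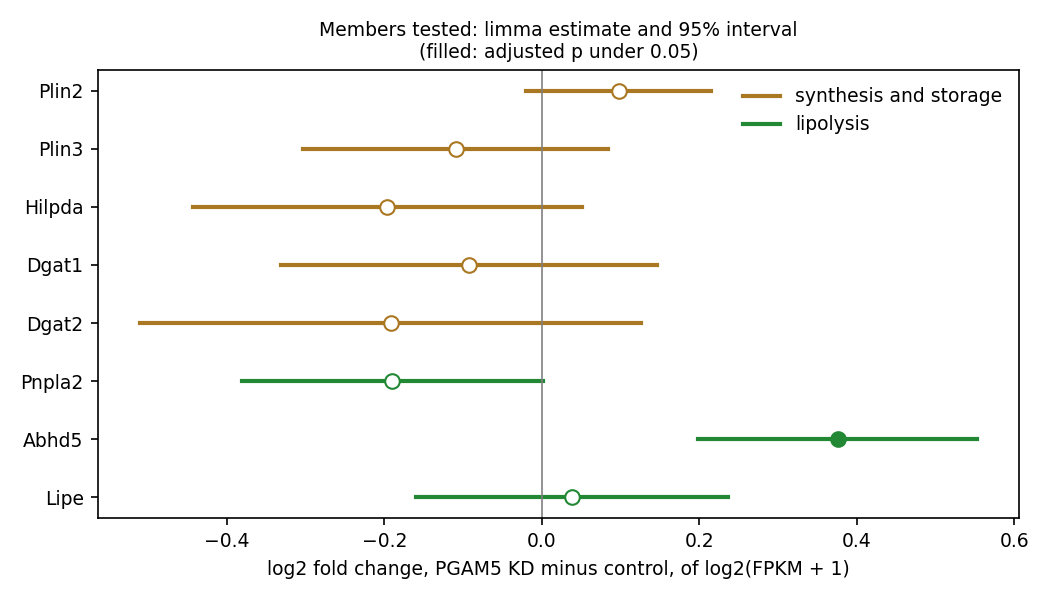
Log2 fold change (PGAM5 KD minus control, of log2(FPKM + 1)) of the 8 genes tested, with points for the limma estimate, bars for its 95% interval, and filled points for an adjusted p-value under 0.05. The interval of Abhd5, from 0.20 to 0.55, is the only one that excludes 0, while that of Pnpla2 ends at 0.0014.

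The order of the levels per length was compared between the groups. In both groups Plin2 was highest, followed by Hilpda and Pnpla2, and the ranges of these 3 genes did not overlap within a group. Abhd5 was above Plin3 within each of the 6 libraries. The ranges of the pair overlapped in control cells (5.17 to 5.93 FPKM for Abhd5, 4.95 to 5.43 FPKM for Plin3) and were separate in PGAM5 KD cells (6.83 to 7.97 FPKM and 4.34 to 5.31 FPKM). Lipe and Dgat1 came next and overlapped each other in both groups, and Dgat2, Gpat3 and Mgll followed without overlap.

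To set storage against lipolysis, ratios of FPKM between members were formed within each library and are given as a description with no test. The 6 genes of synthesis and storage summed to 2.38, 2.35 and 2.503 times the 4 genes of lipolysis in control and to 2.18, 2.55 and 2.23 times in PGAM5 KD libraries, so the groups overlapped. Plin2 and Hilpda (mean 24.6 and 17.4 FPKM in control) lead the first sum and Pnpla2 (12.7 FPKM) the second. Dgat1, Dgat2 and Gpat3 weigh little in this ratio, and Mgll adds nothing to it. The ratio of Hilpda to Pnpla2, the inhibitor against its enzyme, had a mean of 1.38 ± 0.210 in control (SD, n = 3) and 1.38 ± 0.198 in PGAM5 KD cells (SD, n = 3). The ratio of Abhd5 to Pnpla2, the co-activator against its enzyme, was 0.374, 0.451 and 0.493 in control and 0.628, 0.793 and 0.633 in PGAM5 KD libraries. These groups did not overlap, and Abhd5 was below Pnpla2 in every library. Abhd5 by itself was already separate between the groups, as were 47.1% of all genes tested, and no such share was computed for ratios. The ratio of Plin2 to Plin3 was 5.15, 4.80 and 4.44 in control and 5.67, 5.16 and 6.10 in PGAM5 KD libraries, which also did not overlap, although PGAM5 KD replicate 2 and control replicate 1 were nearly equal and neither gene was called. The ratio of Dgat1 to Dgat2 ranged from 1.46 to 2.26 in control and from 1.72 to 2.52 in PGAM5 KD libraries, with overlap.

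**Figure D3:**
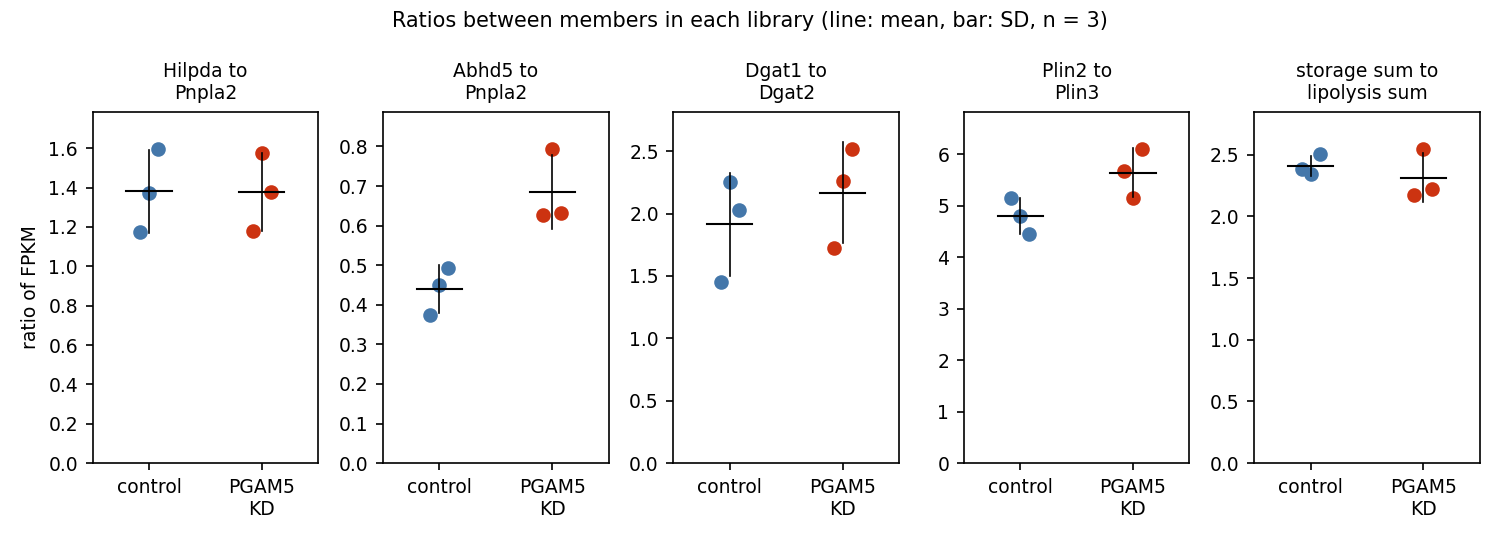
Ratios of FPKM between members in each library, with 1 point per library, a line at the mean and a bar for the SD (n = 3 per group), on axes that start at 0. The ratio of Abhd5 to Pnpla2 is separate between the groups (0.374 to 0.493 against 0.628 to 0.793), and the ratio of summed storage to summed lipolysis genes overlaps.

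The other genes of the pathway were taken from 5 lists with 87 genes, of which 59 passed the filter. At an adjusted p-value under 0.05, 9 were higher and 13 lower in PGAM5 KD cells, a share of 37.3% against the 31.7% of all genes tested. Scaled to TPM, 4 were higher and 15 lower, where 1088 of all genes tested were higher and 2282 lower. The median log2 fold change of the 59 genes was 0.00057. The number called fell from 22 to 13 without control replicate 2 and to 14 without PGAM5 KD replicate 3. Of 20 named genes, 11 were past the threshold in all 16 alternative settings, namely Agpat3, Vps13c, Lpl, Nceh1, Lipa, Pnpla7, Msr1, Fabp4, Slc27a1, Cd36 and Mlxip.

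Of 8 tested genes for other lipases and lipid hydrolases, 5 were lower, 1 was higher and 2 were not called, with a median log2 fold change of -0.35. This is 75% of the list, against 31.7% of all genes tested. Lpl, which encodes the secreted lipase that frees fatty acids from lipoproteins, fell from 59.4 ± 0.785 to 35.6 ± 1.31 FPKM (SD, n = 3 each), a log2 fold change of -0.72 with a standard error of 0.04 (limma adjusted p = 3.84e-05). Lipa, the acid lipase of the lysosome, fell from 139 ± 1.91 to 95.3 ± 1.71 FPKM (SD, n = 3 each), a log2 fold change of -0.54 with a standard error of 0.03 (limma adjusted p = 4.28e-05). Nceh1, a hydrolase of cholesteryl esters, fell from 15.1 ± 0.6995 to 9.42 ± 0.301 FPKM (SD, n = 3 each), with a log2 fold change of -0.63. The other genes called in this list act on lysophospholipids, namely Pnpla7 (log2 fold change -0.45), Abhd12 (-0.24) and Pnpla6 (0.24), and Abhd12 is named after its values were seen. The call of Pnpla6, the one higher gene of the list, was lost in 8 of 15 alternative settings, with adjusted p-values up to 0.119 from limma. Without control replicate 1, without control replicate 2 or without PGAM5 KD replicate 2, 4 genes of the list were called. G0s2, which encodes another inhibitor of ATGL, was listed at 0 in every library and is also named after its values were seen.

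Of 12 tested genes for the uptake, binding and activation of fatty acids, 5 were higher, 1 was lower and 6 were not called, with a median log2 fold change of 0.14. The share called was 50%, against 31.7% of all genes tested. Scaled to TPM, 3 were higher and 2 lower with a median of 0.065, and after quantile normalization 4 were higher and 2 lower with a median of 0.088. Msr1, a scavenger receptor that takes up modified lipoproteins rather than free fatty acids, rose from 11.6 ± 0.315 to 24.9 ± 0.793 FPKM (SD, n = 3 each), a log2 fold change of 1.04 with a standard error of 0.04 (limma adjusted p = 2.05e-05). On log2(FPKM + 1), it was the only gene of the 5 lists past the study's rule for differential expression. Fabp4, a fatty acid binding protein, rose from 3.68 ± 0.173 to 7.79 ± 0.330 FPKM (SD, n = 3 each), a log2 fold change of 0.91 with a standard error of 0.06. Fabp4 also passed that rule with a pseudocount of 0.1 (log2 fold change 1.06) and with voom on the recovered fragments (1.08). Cd36, a receptor for fatty acids and oxidized lipoproteins, rose by 0.31 on the log2 scale, and Acsl4, which activates polyunsaturated fatty acids, by 0.20, a call that was lost when scaled to TPM (adjusted p = 0.0607 from limma). Slc27a1, a transporter of long-chain fatty acids, fell from 68.5 ± 1.92 to 45.2 ± 1.73 FPKM (SD, n = 3 each), a log2 fold change of -0.59 with a standard error of 0.04.

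Of 12 tested genes of glycerolipid and sterol ester synthesis, 2 were higher, 3 were lower and 7 were not called, a share of 41.7% against 31.7% of all genes tested. Their median log2 fold change was -0.027, and ran from -0.055 without PGAM5 KD replicate 1 to 0.0046 without control replicate 2 and 0.028 without control replicate 3, and was -0.11 when scaled to TPM. Agpat3, an acyltransferase of the step after Gpat3, rose by 0.25 on the log2 scale, and Gk, the glycerol kinase, by 0.19. Lpin2, a phosphatidate phosphatase, had a log2 fold change of -0.25, Soat1, which makes cholesteryl esters, of -0.22 and Gpat4, an acyltransferase of the same step as Gpat3, of -0.18. The call of Gk was lost in 7 of 16 alternative settings (adjusted p up to 0.135 from limma, when scaled to TPM), that of Soat1 in 6, that of Gpat4 in 5 and that of Lpin2 in 1. Between 1 gene, without control replicate 2, and 4 genes of this list were called when 1 library was left out, and control replicate 3 and PGAM5 KD replicates 2 and 3 also moved the count by over 1.5 times, to 2, 3 and 2 genes. Gpat4 had 26.5 ± 1.24 FPKM in control against 23.2 ± 0.357 FPKM after PGAM5 KD (SD, n = 3 each), far above the level of Gpat3 in either group.

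Of 11 tested genes of the droplet coat and its assembly, 1 was higher, 3 were lower and 7 were not called, with a median log2 fold change of -0.067 (-0.15 when scaled to TPM). This share of 36.4% is near the 31.7% of all genes tested. Vps13c, a lipid transfer protein found at droplet contacts, fell from 19.3 ± 0.654 to 14.3 ± 0.352 FPKM (SD, n = 3 each), a log2 fold change of -0.41 with a standard error of 0.04 (limma adjusted p = 0.000695). The other calls were those of Pcyt1a, which makes phosphatidylcholine for the droplet surface (-0.14), Aup1, a droplet protein that recruits ubiquitin enzymes (-0.14), and Rab18, a small GTPase of droplets (0.11). Each was lost in at least 9 of 16 alternative settings, so that 1 or 2 genes of the list were called whichever library was left out. The exons of Aup1 share 753 bases with Htra2 on the opposite strand, which had up to 42.9% of the fragments of both genes, so the value of Aup1 is uncertain. Plin1, Plin5, Cidea, Cidec and Fitm1 were listed at 0 in every library and are named after their values were seen. Of 16 tested regulators of these genes, 1 was called (6.25%), namely Mlxip, a glucose-responsive transcription factor, with a log2 fold change of -0.26 with a standard error of 0.05 (limma adjusted p = 0.0115). This count was 2 without control replicate 2 and 4 with voom on recovered fragments. With voom over genes with a mean of at least 10 fragments, it was 5 of 17, where 33.5% of all genes were called. Hif1a, named after its values were seen, had 52.6 ± 2.62 FPKM in control against 56.9 ± 1.20 FPKM after PGAM5 KD (SD, n = 3 each), which missed the threshold (limma adjusted p = 0.0925). Pparg had at most 3 fragments in any library, and Ppara was listed at 0. Ppard was expressed, with 1.23 ± 0.267 FPKM in control against 1.88 ± 0.353 FPKM after PGAM5 KD (SD, n = 3 each). Its log2 fold change of 0.37 missed the threshold (limma adjusted p = 0.0817). These PPAR genes are likewise named after their values were seen.

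**Figure D4:**
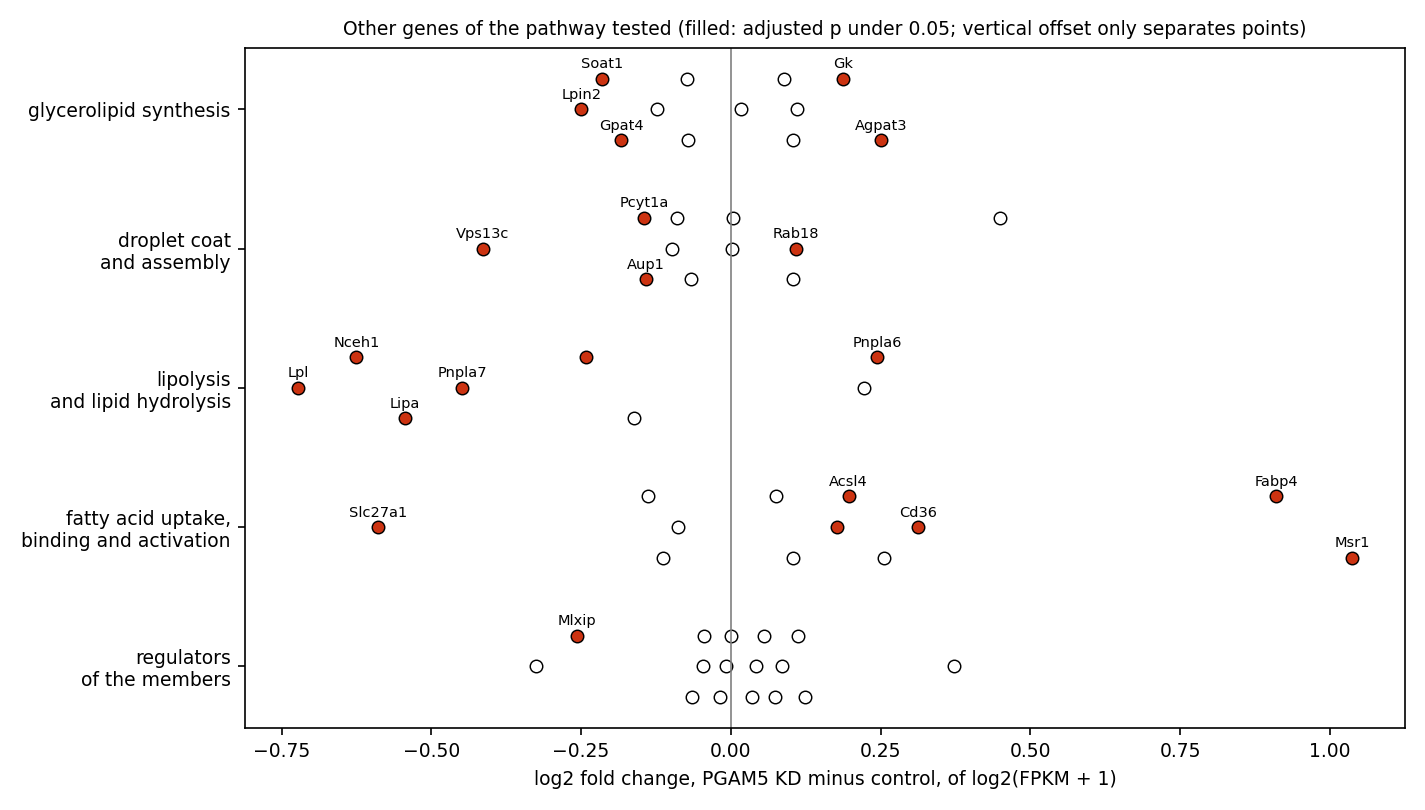
Log2 fold change (PGAM5 KD minus control, of log2(FPKM + 1)) of the 59 tested genes of 5 pathway lists, with 1 point per gene, filled where the adjusted p-value was under 0.05 and named for at most 5 genes per list. Lpl, Nceh1, Lipa and Slc27a1 lie at the left, from -0.72 to -0.54, and Fabp4 and Msr1 at the right, at 0.91 and 1.04.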

How the data were processed

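RNA-seq was carried out in 3 control and 3 PGAM5 KD libraries, grouped by the shRNA in their labels. The authors deposited FPKM, 1 table per library. The submitters' processing notes name HISAT2 2.0.5, featureCounts 1.5.0-p3 and the mm10 build, while the annotation and strand setting are not given in the sources used here. Gene names and exon lengths came from GENCODE M21, which holds 54495 of 54532 genes. FPKM multiplied by exon length gave whole fragments within 0.01 for 96.8% to 97.1% of values under 1000 fragments.

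Genes averaging at least 1 FPKM over the 6 libraries (10540) were fitted as log2(FPKM + 1) with limma 3.58.1 in R 4.3.3, two-sided, with a mean-variance trend and no covariates, and p-values were adjusted by Benjamini-Hochberg over all of them, after the fit was tested on simulated data. Exact permutation tests over libraries were two-sided. The 10 genes, the lists and the tests were chosen with earlier results of these data known. Named are the 10 genes, Pgam5, at most 5 called genes per list by size of change, overlapping or marker genes, and a few genes outside this rule, which the text says were chosen after their values were seen. Sequence resemblance was checked with blastn 2.17.0, keeping matches of 200 or more bases with 85% or more identity. Adding 1 shrinks the fold changes of genes with low FPKM. The alternatives were a pseudocount of 0.1, no filter, a mean FPKM of at least 5, TPM, quantile normalization, median centring, no trend, voom on recovered fragments, a replicate block and each library left out. Voom with a mean of at least 10 fragments and the unfiltered fits with 1 library left out were chosen after seeing the data. Figures were drawn with Python 3.11.15 and matplotlib 3.10.9.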

Additional observations from a re-analysis of the deposited data

How the results depend on the processing

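The count of members called was 1 in the main fit and when any library was left out. It was 2 with no filter and 2 with voom over genes with at least 10 fragments, by the addition of Gpat3, which passed the latter filter only through its PGAM5 KD libraries, and 2 when scaled to TPM, by the addition of Pnpla2 (log2 fold change -0.28, adjusted p = 0.0454 from limma, against 0.0454 to 0.294 over its alternatives). The unfiltered log2 fold change of Gpat3 was 0.34, 0.32 and 0.35 without control replicate 1, 2 and 3, and 0.39, 0.32 and 0.31 without PGAM5 KD replicate 1, 2 and 3, with the call lost in 5 of these 6 fits. Values near 0 changed sign, with the log2 fold change of Dgat1 at 0.00025 without PGAM5 KD replicate 1 (-0.17 to 0.00025 over the libraries left out) and that of Lipe at -0.027 when scaled to TPM, -0.0057 without control replicate 1 and -0.0047 without PGAM5 KD replicate 1 (-0.0057 to 0.095). The pathway count of 22 was between 13 and 19 with 1 library left out, and the count over all genes, 3346, was between 2340 and 2858. TPM gave 1088 higher and 2282 lower calls over all genes, against 1771 and 1575 with FPKM. The median log2 fold change of all genes was -0.060 with TPM and 0.01 with FPKM. The labels do not say whether replicate numbers pair the samples. The deviations of same-numbered libraries had correlations of -0.0197, 0.0161 and -0.0516, which cannot settle how the samples were prepared. A replicate block left the count of members at 1 and gave 14 pathway genes, with 2652 calls over all genes. Of 544 values under alternatives, 472 kept their direction and side of the threshold, stayed within 1.5 times for counts, or moved by less than 1 SD, pooled over both groups, for ratios. Within that SD, the difference in the ratio of Hilpda to Pnpla2 (-0.0039) ran from -0.107 to 0.103 with 1 library left out, that of Dgat1 to Dgat2 (0.253) from 0.024 to 0.474, and that of the summed ratio (-0.096) from -0.211 to -0.026. Few fragments limit Gpat3 and Dgat2, and Mgll, listed at 0 and perhaps not counted, could not be compared.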
